A study of Homo sapiens with 4 samples.

Results

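The 41 genes described here encode the machinery of the synaptic vesicle, its calcium-triggered release, its retrieval and the adhesion and scaffold proteins that align the sides of a synapse. They were chosen by symbol from a list of names, not by a cutoff on their values, but with earlier results of these data known. All 41 were found among the 55765 symbols of the deposited count table. The cells were of SK-N-BE(2)C, a clonal subline of an established neuroblastoma line that carries amplified MYCN, and were grown in RPMI1640 with fetal calf serum. The treated cells had received 10 µM all-trans retinoic acid (ATRA), a vitamin A derivative under which many neuroblastoma cells extend neurites, for 144 h. The control cells had received ethanol, the solvent of ATRA, for the same 144 h. There were 2 libraries per group, called 1 (no number in the title) and 2 here. The labels do not say whether they came from separate cultures, so every p reflects the scatter of these libraries alone, and that scatter may be technical.

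At a synapse, vesicles are filled with transmitter, docked at an active zone and primed by scaffold proteins such as the RIMs and the UNC13 family. A SNARE bundle of syntaxin, SNAP25 and synaptobrevin then fuses the membranes, held in check by complexin and triggered by the calcium sensor synaptotagmin. Neurexins and neuroligins join the facing membranes, and scaffolds of the SHANK, HOMER and gephyrin families hold receptors on the receiving side. Cells of the sympathetic lineage, from which neuroblastoma arises, also use this machinery to release catecholamines from dense-core vesicles.

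Libraries held 15518828 and 16498355 counts with ATRA and 12850462 and 19883465 with ethanol. Libraries with the same number resembled each other: mitochondrial ribosomal RNA took 2.49% of counts in ATRA 1 and 0.130% in ATRA 2, against 5.96% in ethanol 1 and 0.0291% in ethanol 2. Differences within library number 1 and within library number 2 are therefore given beside the fitted values. Levels are given in CPM, the reads of a gene scaled to the size of its library. All 8 neuroblast markers had reads, with summed levels of 2613 to 3423 CPM with ATRA and 3947 to 4837 CPM with ethanol. Among 8 markers of glial precursors FOXD3 had no read, SOX10 lay between 0.658 and 2.37 CPM with ATRA and between 0.545 and 3.08 CPM with ethanol, and the list summed to 18.4 to 23.3 CPM with ATRA and 10.3 to 13.4 CPM with ethanol. The 8 mesenchymal markers all had reads and summed to 309.6 to 439 CPM with ATRA and 305 to 636 CPM with ethanol, but single genes of this list and of the neuroblast list differed far more than the sums. Of the mesenchymal list 1 gene was called, the collagen gene COL3A1, with 112 and 27.7 CPM with ATRA, against 0.539 and 1.09 CPM with ethanol (log2 fold change 6.36, adjusted p 0.0459, edgeR quasi-likelihood). COL1A1 had 23.0 and 4.91 CPM with ATRA, against 0 and 0.644 CPM with ethanol, whereas LUM had 13.7 and 21.8 CPM with ATRA, against 39.8 and 126 CPM with ethanol. Of the neuroblast list 1 gene was called, GATA3, with 5.76 and 7.30 CPM with ATRA, against 38.8 and 42.7 CPM with ethanol (-2.64, adjusted p 0.0382, edgeR quasi-likelihood). PHOX2A alone in this list had a value above 0 (0.92), with 454 and 275 CPM with ATRA, against 221 and 165 CPM with ethanol. ISL1 was at -0.06. Most of the neuroblast sums came from MYCN, with 2319 and 1778 CPM with ATRA, against 3739 and 2910 CPM with ethanol. Markers of blood and endothelium (3 of 4 with a read, CD68 without) and of epithelium (2 of 3, KRT5 without) summed to under 2 CPM in every library. The part of these cell types in the results below was not tested, and in bulk RNA fewer cells of a type and less RNA per cell cannot be told apart.

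Did ATRA change the synaptic genes? The synaptotagmins SYT4, SYT11 and SYT5 and the synuclein SNCG stood 3.47-fold to 16.3-fold higher with ATRA, while the active zone scaffolds RIMS3 and RIMS2 stood at 0.385 and 0.469 of the ethanol level. No member passed the test over all genes: 0 of the 36 members that passed the filter on low counts were called higher and 0 lower by edgeR quasi-likelihood at an adjusted p of 0.05, where 0.545% of the 18900 genes tested were called higher and 0.153% lower. At an unadjusted p under 0.05, 7 members were higher and 2 lower, or 19.4% and 5.56% of those measured, against 9.43% and 6.49% of all genes tested. DESeq2 called 5 members higher (SYT4, SYT5, SYT11, SNCG and NRXN3) and 1 lower (RIMS3) of 39 with an adjusted p, or 12.8% and 2.56%, where 4.03% and 2.15% of its 20396 genes were called. Limma-voom called 0 members in either direction. The count of 0 does not show that the members did not differ, as there were only 2 libraries per group. Same-numbered libraries deviated together and the fit above held no term for the number. A fit with such a term (replicate block) called 6 of the 36 members higher and 3 lower. It called 2325 of the 18900 genes higher and 1773 lower (edgeR quasi-likelihood). The labels give the number no meaning, that fit keeps 1 residual degree of freedom, and what the number stands for was not tested. Simulated data gave every gene a random difference between numbers, and there the test without the term recovered 0% of the 8-fold changes. In the real data it called 132 genes, so the simulation does not give the power of the test here. In edgeR fits without 1 of the 4 libraries, 3 to 7 members were called higher and 0 to 4 lower, in fits that called 547 to 838 genes higher and 231 to 604 lower in all. Such a fit leaves 1 library in a group, which is assumed to vary like those of the other group, so these calls rest on the spread of 1 pair of libraries and are not support for any member.

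The 36 members had a median log2 fold change of 0.40, beside 0.01 for all genes tested. Within library number 1 their median difference was 0.16, and within number 2 it was 0.70. Without ATRA 2 the median was 0.08. The log2 fold change was above 0 for 26 members (72.2%, against 50.8% of all genes tested). Both ATRA libraries lay above both ethanol libraries for 14 members (38.9%, against 23.8% of genes) and below them for 7 (19.4%, against 21.7%). The log2 fold change was 1 or more for 8 members (22.2%, against 11.3% of genes) and -1 or less for 3 (8.33%, against 7.63%). The filter, the same for all genes, lets a gene with few reads pass through the group where it is higher. Of the 8, NLGN3 had 3 and 5 reads with ethanol, RIMS1 10 and 4, and SNCG 2 and 14. Of the 3, SNCB had 5 and 11 reads with ATRA. Values spanned -1.38 for RIMS3 to 4.03 for SNCG on the log2 scale.

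**Figure D1:**
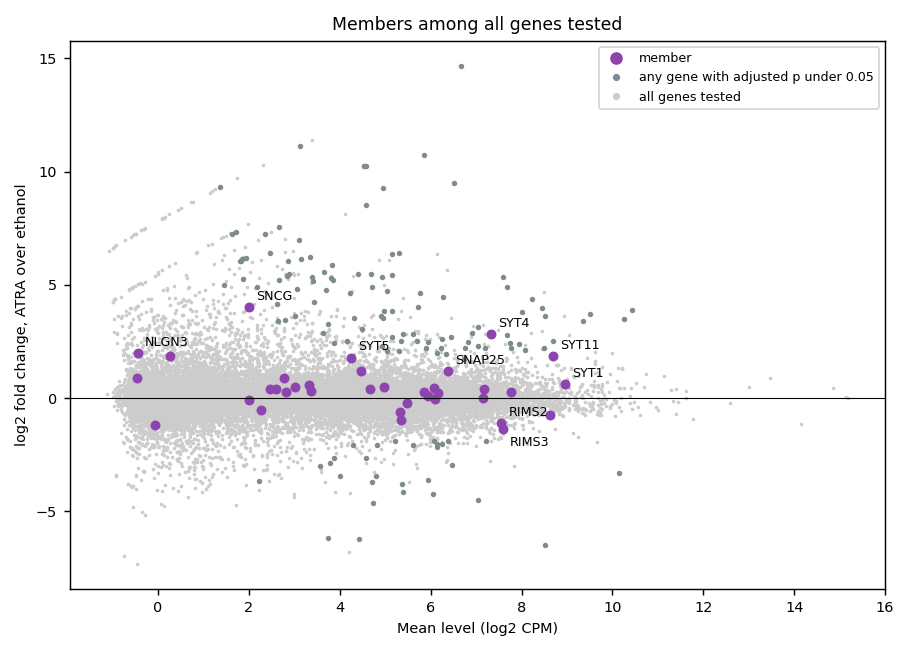
Log2 fold change of ATRA over ethanol (vertical axis) against mean level in log2 CPM (horizontal axis) for 18900 genes; purple points are the 36 measured members, dark grey points the 132 genes with an adjusted p under 0.05. The 9 members named have an unadjusted p under 0.05, 7 above the zero line and 2 below it, and no member is among the genes called.

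The synaptotagmins, the family that holds the calcium sensors of release, stood higher with ATRA in all 4 members measured, none of them past the adjusted threshold. SYT4, a synaptotagmin of dense-core vesicles, had 154 and 409.7 CPM with ATRA, against 17.8 and 60.6 CPM with ethanol. The ATRA libraries lay above both ethanol libraries, and library 2 was the higher one in each group. The fitted log2 fold change was 2.84 ± 0.72 (SE; n = 2 libraries per group) with an adjusted p of 0.135 (edgeR quasi-likelihood), and the differences within numbers 1 and 2 were 3.11 and 2.75. The value was 1.95 without ATRA 2 and 4.01 without ethanol 2.

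SYT11, a family member that binds no calcium and acts in vesicle retrieval, had 491 and 810.1 CPM with ATRA, against 166 and 195 CPM with ethanol. The groups did not overlap, and the lower ATRA library stood far above the higher ethanol one. The log2 fold change was 1.85 ± 0.33 (adjusted p 0.0711, edgeR quasi-likelihood), with 1.56 and 2.06 within numbers. When the fit was restricted to protein-coding genes this gene passed (adjusted p 0.0497, edgeR quasi-likelihood; 0.000082 to 0.0908 over all alternatives, those with other tools included).

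SYT5, a sensor of dense-core vesicles, had 32.7 and 25.5 CPM with ATRA, against 10.1 and 6.74 CPM with ethanol. Its log2 fold change was 1.79 ± 0.35 (adjusted p 0.0846, edgeR quasi-likelihood), with nearly equal differences of 1.68 and 1.90 within numbers. SYT1, the fast sensor of synchronous release, had 536 and 673 CPM with ATRA, against 382 and 406 CPM with ethanol. The groups were again separate, but the size was smaller, at 0.62 ± 0.25 (adjusted p 0.314, edgeR quasi-likelihood).

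SNCG, gamma-synuclein, a small vesicle-binding protein of peripheral neurons, had 6.23 and 8.55 CPM with ATRA, against 0.154 and 0.694 CPM with ethanol. These levels rest on 92 and 143 reads with ATRA and on 2 and 14 with ethanol. The log2 fold change of 4.03 ± 0.76 was the largest of the 36 measured members, with an adjusted p of 0.0815 (edgeR quasi-likelihood; 4.52 and 3.41 within numbers), and it was 3.35 without ethanol 1 and 5.53 without ethanol 2. Its relative SNCB, beta-synuclein, had 5 and 11 reads with ATRA and 18 and 19 with ethanol, at -1.19 ± 0.73.

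The promoters of these 4 genes, which had the smallest p among the higher members (SYT4, SYT11, SYT5 and SNCG), are shown so that the start regions can be compared. They run from 250 bases before to 50 after an annotated start, 5′ to 3′ on the strand of the gene, and come from RefSeq on GRCh38.p14, a later build than the hg19 of the counts. The windows are chr18:43277441-43277740 (minus strand) for SYT4, chr1:155859317-155859616 (plus) for SYT11, chr19:55179299-55179598 (minus), the downstream of its 2 annotated starts, for SYT5, and chr10:86958349-86958648 (plus), the downstream of its 2 starts, for SNCG. Capitals mark matches to GGTTCA or its reverse complement TGAACC, one of the half-site forms to which retinoic acid receptors bind in pairs.
SYT4: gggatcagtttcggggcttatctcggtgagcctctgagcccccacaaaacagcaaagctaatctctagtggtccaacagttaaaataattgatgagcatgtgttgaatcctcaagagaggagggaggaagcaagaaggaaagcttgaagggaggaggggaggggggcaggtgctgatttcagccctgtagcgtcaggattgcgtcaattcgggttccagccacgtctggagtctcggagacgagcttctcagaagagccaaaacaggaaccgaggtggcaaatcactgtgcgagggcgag
SYT11: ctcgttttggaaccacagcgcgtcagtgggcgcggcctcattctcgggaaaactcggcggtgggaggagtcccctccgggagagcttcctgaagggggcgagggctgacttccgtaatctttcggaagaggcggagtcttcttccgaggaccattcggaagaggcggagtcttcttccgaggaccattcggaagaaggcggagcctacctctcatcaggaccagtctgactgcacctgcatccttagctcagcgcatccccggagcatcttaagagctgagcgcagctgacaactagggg
SYT5: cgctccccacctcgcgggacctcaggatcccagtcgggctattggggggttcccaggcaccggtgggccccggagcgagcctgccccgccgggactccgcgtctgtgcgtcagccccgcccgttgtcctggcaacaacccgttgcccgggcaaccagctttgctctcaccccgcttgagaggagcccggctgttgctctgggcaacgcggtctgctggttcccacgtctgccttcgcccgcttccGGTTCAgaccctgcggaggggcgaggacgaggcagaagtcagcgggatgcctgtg
SNCG: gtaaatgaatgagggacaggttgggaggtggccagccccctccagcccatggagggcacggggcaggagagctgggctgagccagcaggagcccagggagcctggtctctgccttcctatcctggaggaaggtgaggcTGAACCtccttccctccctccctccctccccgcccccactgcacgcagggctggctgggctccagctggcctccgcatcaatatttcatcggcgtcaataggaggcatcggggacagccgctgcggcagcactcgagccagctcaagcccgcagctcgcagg

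Matches to AGGTCA or GGTTCA on either strand, or to the E-box CACGTG or the cyclic AMP element TGACGTCA, were searched in 47 windows of 33 members. GGTTCA was found in 1 window each of SYT5 (from base 246 of the window shown) and SNCG (from base 139), and in those of NLGN2 and UNC13A. AGGTCA or GGTTCA stood in 5 member windows (10.6%), against 20.9% of 35116 windows of all genes. The median share of G and C bases was 67% in member windows, against 58.7% in all windows. The part of base content in the motif shares was not tested. The SYT4 and SYT11 windows held none of the motifs searched. In the SYT11 window a stretch of 33 bases stood in direct repeat, with copies from bases 121 and 154. CACGTG was in 1 member window, that of UNC13A (2.13%, against 7.26% of all), and TGACGTCA in 1, that of SYN1 (2.13%, against 1.85%). A match is a run of letters and does not show binding.

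The shares of the 4 synaptotagmins within their summed level per kilobase of exon are given as a description, with other paralogues such as SYT9 not counted. SYT1 made up 38.0% and 29.2% with ATRA, against 61.0% and 54.6% with ethanol. SYT11 made up 43.2% and 43.5% with ATRA, against 32.9% and 32.4% with ethanol, and the order of SYT1 and SYT11 was thus opposite in the groups. SYT4 made up 16.0% and 26.0% with ATRA, against 4.16% and 11.9% with ethanol. The summed level was 217 and 355 CPM per kilobase with ATRA, against 96.3 and 115 CPM per kilobase with ethanol.

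**Figure D2:**
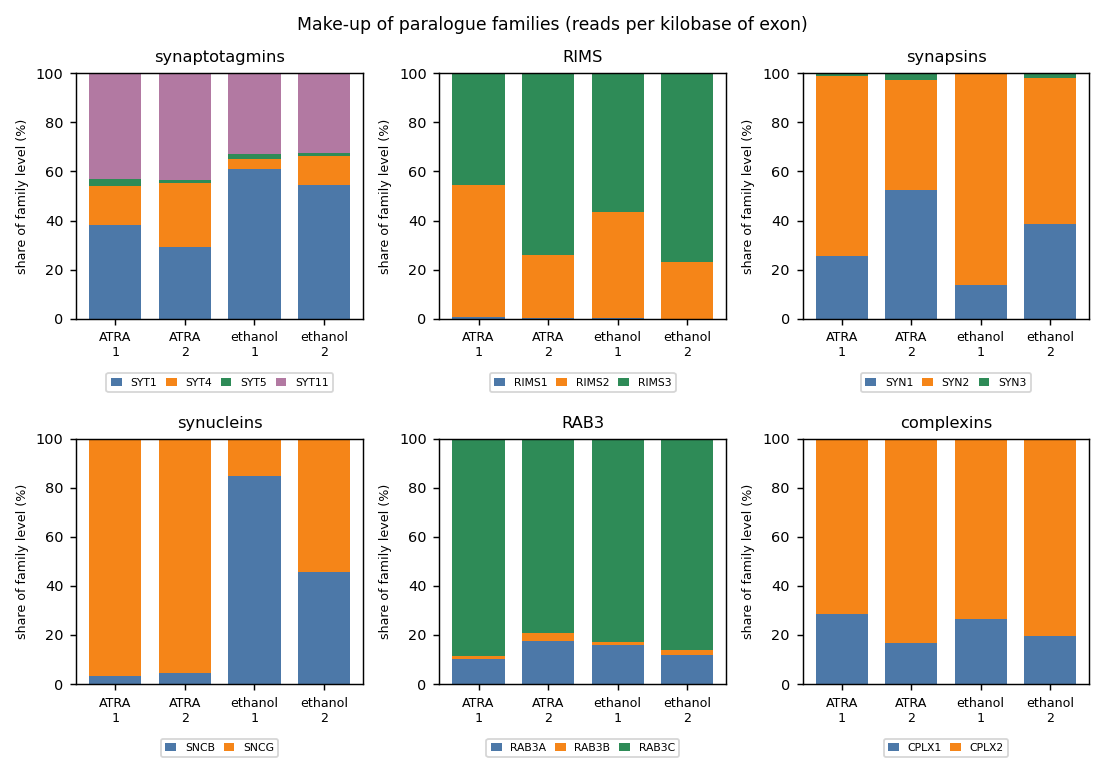
Share of each paralogue in the summed level of its family (vertical axis, percent of reads per kilobase of exon) in each of the 4 libraries, for 6 families. SYT11 is the widest synaptotagmin band in both ATRA bars and SYT1 in both ethanol bars, while the RIMS and synapsin bands follow the library number.

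SNAREs and complexins lay between -0.95 and 1.18 on the log2 scale. SNAP25, the SNARE of the plasma membrane, had 67.9 and 164 CPM with ATRA, against 52.1 and 50.5 CPM with ethanol. ATRA 1 lay close to the ethanol libraries and ATRA 2 far above them, as the differences of 0.38 and 1.70 within numbers show. The log2 fold change was 1.18 ± 0.43 (adjusted p 0.265, edgeR quasi-likelihood), and it was 1.67 without ATRA 1 and 0.40 without ATRA 2. STX1A, syntaxin 1A, its partner, had 30.4 and 42.8 CPM with ATRA, against 24.6 and 26.9 CPM with ethanol, at 0.51 ± 0.28. In the annotation 17.9% of the exon bases of STX1A are also exon of BUD23 on the other strand, and whether the counting kept the strands apart is not given in the sources used here.

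The synaptobrevins VAMP1 and VAMP2, the vesicle SNAREs, were low in every library. VAMP1 had 3.32 and 4.37 CPM with ATRA and 5.62 and 5.60 CPM with ethanol, and VAMP2 3.86 and 3.65 CPM with ATRA and 4.00 and 3.96 CPM with ethanol. Both were lower in the ATRA libraries, by differences that did not pass (-0.54 ± 0.44 and -0.09 ± 0.46; adjusted p 0.657 and 0.966, edgeR quasi-likelihood). Of their exon bases, 9.47% of VAMP1 and 13.2% of VAMP2 overlap another gene.

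Complexins, which clamp and promote SNARE fusion, were lower with ATRA. CPLX2 had 230.1 and 356 CPM with ATRA, against 609 and 385 CPM with ethanol. CPLX1 had 31.3 and 24.0 CPM with ATRA, against 75.2 and 32.1 CPM with ethanol. In both genes the ATRA libraries lay below the ethanol libraries, with ethanol 1 as the highest, so that the differences were wide within number 1 (-1.40 for CPLX2 and -1.26 for CPLX1) and narrow within number 2 (-0.11 and -0.42). The fitted values were -0.76 ± 0.35 and -0.95 ± 0.44 (adjusted p 0.368 for both, edgeR quasi-likelihood). The value for CPLX1 was -1.43 without ethanol 2 and -0.26 without ethanol 1.

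Active zone and priming genes held both members that were lower at an unadjusted p under 0.05. RIMS3, a short RIM protein without the RAB3-binding part, had 64.4 and 150 CPM with ATRA, against 226 and 331 CPM with ethanol. The groups did not overlap, and the log2 fold change was -1.38 ± 0.45 (adjusted p 0.216, edgeR quasi-likelihood; -1.81 and -1.14 within numbers). It was -2.12 without ATRA 2 and -0.90 without ATRA 1. RIMS2, a long RIM that links RAB3 to calcium channels, had 143 and 97.4 CPM with ATRA, against 326 and 186 CPM with ethanol, at -1.09 ± 0.36 (adjusted p 0.222, edgeR quasi-likelihood; -1.19 and -0.94 within numbers). It was -1.43 without ethanol 2 and -0.68 without ethanol 1. RIMS1, its close relative, was scarce, with 25 and 28 reads with ATRA and 10 and 4 with ethanol, and its value of 1.84 ± 0.81 pointed the other way (3.00 without ethanol 1 and 1.14 without ethanol 2).

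Summed per kilobase, the RIMS family stood at 19.5 and 28.0 CPM per kilobase with ATRA, against 55.2 and 59.5 CPM per kilobase with ethanol. The balance between RIMS3 and RIMS2 followed the library number: RIMS3 made up 45.7% in ATRA 1 and 74.0% in ATRA 2, against 56.5% in ethanol 1 and 77.0% in ethanol 2.

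The other 4 measured active zone members lay between 0.02 and 0.44 on the log2 scale. UNC13A, the priming factor, had 119 and 167 CPM with ATRA and 136 and 146 CPM with ethanol, at 0.02 ± 0.27. The giant scaffolds BSN and PCLO were at 0.40 ± 0.30 and 0.22 ± 0.30. CADPS, which primes dense-core vesicles, had 22.2 and 132 CPM with ATRA and 41.2 and 72.3 CPM with ethanol. Its ATRA libraries stood on either side of the ethanol libraries, with differences of -0.89 and 0.86 within numbers, and the fitted value of 0.44 ± 0.77 became -1.37 without ATRA 2 and 1.20 without ATRA 1. Its paralogue CADPS2 had 2 and 0 reads with ATRA and 2 and 0 with ethanol.

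**Figure D3:**
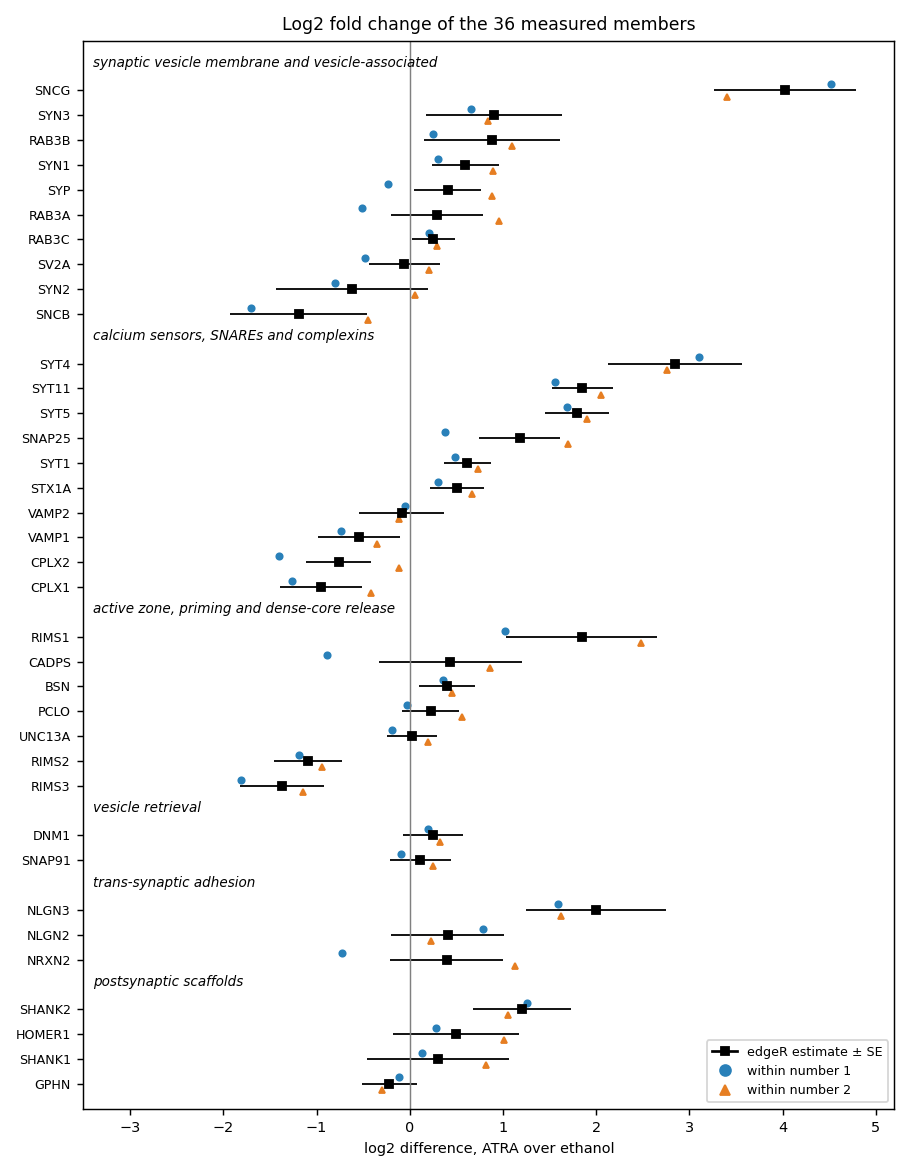
Log2 fold change of ATRA over ethanol for the 36 measured members by role, with black squares and bars for the edgeR estimate ± SE, blue circles for the difference within library number 1 and orange triangles for that within number 2. The squares of SNCG and SYT4 lie furthest to the right, followed by NLGN3, SYT11, RIMS1 and SYT5, that of RIMS3 lies furthest to the left, and 9 members, among them CADPS, NRXN2, RAB3A and SYP, have the circle and the triangle on opposite sides of zero.

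Vesicle membrane genes had a median log2 fold change of 0.35 over 10 measured members. SYP, synaptophysin, the classic marker of small vesicles and per kilobase the most abundant of the vesicle proteins, had 110.2 and 217 CPM with ATRA, against 129 and 117 CPM with ethanol. The groups overlapped, with ATRA 2 alone above the rest (0.41 ± 0.36; -0.23 and 0.89 within numbers). SV2A, a transporter-like vesicle protein, had 44.0 and 89.7 CPM with ATRA and 61.3 and 77.8 CPM with ethanol, at -0.06 ± 0.38. SV2B and SV2C were close to absent: SV2B had 3 and 4 reads with ATRA and 0 and 0 with ethanol, and SV2C had 53 and 0 reads with ATRA and 4 and 0 with ethanol.

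RAB3C, a small GTPase of vesicle docking and the leading RAB3 here, had the smallest SE of the 36 measured members, with 233 and 244 CPM with ATRA and 202 and 198 CPM with ethanol (0.25 ± 0.23). It made up 88.7% and 79.2% of the 3 RAB3 members per kilobase with ATRA, against 83.1% and 86.1% with ethanol. RAB3A, the main form of brain synapses, had 5.08 and 10.1 CPM with ATRA and 7.31 and 5.15 CPM with ethanol. RAB3B had 3.59 and 13.8 CPM with ATRA and 3.00 and 6.39 CPM with ethanol, higher in library 2 of each group.

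Among the synapsins, which tether vesicles to actin, SYN1 had 11.0 and 12.9 CPM with ATRA, against 8.93 and 6.89 CPM with ethanol, at 0.60 ± 0.36. SYN2 split by library number, with 46.9 and 16.5 CPM with ATRA and 81.8 and 15.8 CPM with ethanol. Its fitted value of -0.62 ± 0.82 was 0.96 without ethanol 1 and -1.55 without ATRA 1. SYN3 had 10 and 15 reads with ATRA and 5 and 9 with ethanol.

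**Figure D4:**
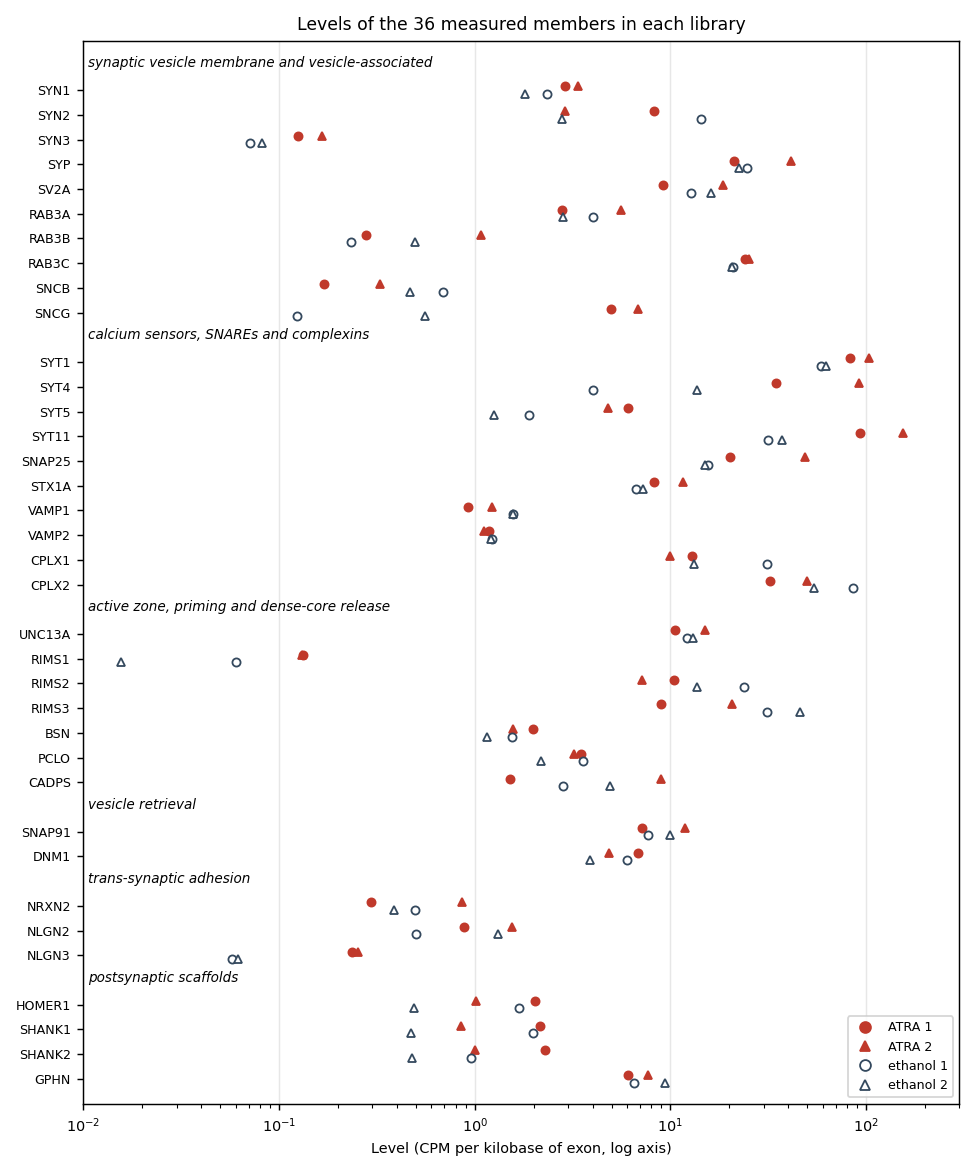
Level of the 36 measured members in CPM per kilobase of exon (horizontal log axis), by role, with filled red symbols for ATRA, open dark symbols for ethanol, circles for library 1 and triangles for library 2. The red symbols of SYT4, SYT11, SYT5 and SNCG lie right of all open ones, those of RIMS2 and RIMS3 left of them, and SYN2, HOMER1, SHANK1 and SHANK2 show circles right of triangles in both groups.

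The retrieval genes SNAP91, a clathrin adaptor of nerve terminals, and DNM1, the neuronal dynamin that cuts vesicles free, overlapped between groups. SNAP91 had 47.8 and 79.1 CPM with ATRA and 51.0 and 66.4 CPM with ethanol. DNM1 had 74.0 and 52.4 CPM with ATRA and 64.5 and 41.9 CPM with ethanol, at 0.25 ± 0.32.

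The adhesion genes that passed the filter had under 10 CPM in every library. NLGN2, the neuroligin of inhibitory synapses and the leading one here, had 4.88 and 8.61 CPM with ATRA and 2.77 and 7.33 CPM with ethanol. NLGN3 had 14 and 17 reads with ATRA, against 3 and 5 with ethanol, and its log2 fold change of 2.00 ± 0.75 had an adjusted p of 0.274 (edgeR quasi-likelihood). NRXN2, a presynaptic neurexin, had 3.12 and 9.15 CPM with ATRA and 5.24 and 4.11 CPM with ethanol.

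NRXN3 and NLGN1 did not pass the filter, and most of the reads of each came from 1 library. NRXN3 had 64 and 6 reads with ATRA, against 3 and 1 with ethanol. The ratio was 18.4, with a 95% exact counting interval of 6.89 to 69.6. NLGN1 had 0 and 1 reads with ATRA, against 39 and 1 with ethanol, at a ratio of 0.0263 (0.000651 to 0.155). For SV2C the ratio was 14.0 with an interval of 5.14 to 53.1, and it rests on ATRA 1 alone. The intervals cover counting error and not the spread between libraries.

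Of the postsynaptic scaffolds, SHANK2 had 43.2 and 18.7 CPM with ATRA, against 17.9 and 8.97 CPM with ethanol. The ATRA libraries lay above the ethanol libraries, narrowly for ATRA 2, with similar differences of 1.26 and 1.05 within numbers and a fitted value of 1.20 ± 0.52 (adjusted p 0.343, edgeR quasi-likelihood; 0.48 without ATRA 1 and 1.74 without ethanol 1). SHANK1 had 16.3 and 6.40 CPM with ATRA and 14.9 and 3.57 CPM with ethanol. HOMER1, which joins SHANK proteins to glutamate receptors, had 12.5 and 6.22 CPM with ATRA and 10.3 and 3.02 CPM with ethanol. GPHN, gephyrin, the scaffold of inhibitory synapses, had 36.4 and 46.1 CPM with ATRA and 39.3 and 56.6 CPM with ethanol (-0.22 ± 0.29).

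Several members thus parted by library number as well as, or in place of, treatment. SYN2, HOMER1, SHANK1 and SHANK2 were at least 2 times higher in library 1 than in library 2 of both groups, and RAB3B and SYT4 at least 2 times higher in library 2. The share of all genes with such a split was not counted. Deviations of same-numbered libraries correlated at 0.632 across 18900 genes, so the split is not shown to be particular to the members. For SYN2 the ratio of library 1 to library 2 was 2.85 with ATRA and 5.18 with ethanol, and for SHANK1 it was 2.55 and 4.19. The share of mitochondrial ribosomal RNA given above also differed by library number, and its part in these values was not tested. None of SYN3, RAB3A, RAB3B, SNAP91, NRXN2, NLGN2, HOMER1 and SHANK1 passed the test, with log2 fold changes of 0.11 for SNAP91 to 0.90 for SYN3. Within both numbers 19 members were higher with ATRA (52.8%, against 38.3% of all genes tested) and 8 lower (22.2%, against 35.3%).

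**Figure D5:**
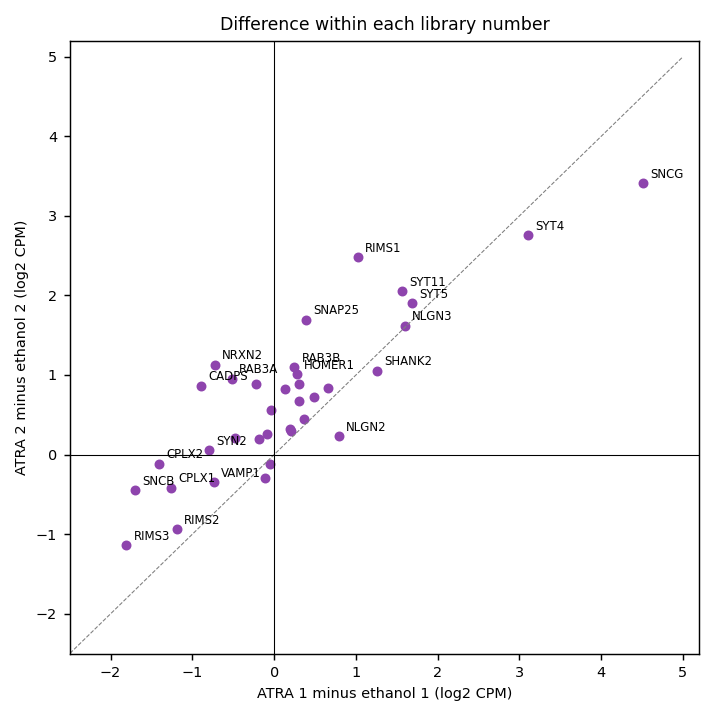
Difference in log2 CPM between ATRA and ethanol within library number 1 (horizontal axis) and within number 2 (vertical axis) for the 36 measured members, with a dashed line of equal difference. The upper right part holds 19 members and the lower left 8, and SNCG and SYT4 lie furthest to the upper right.

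In order of level per kilobase, SYT11 came first with ATRA (124 ± 43.1 CPM per kilobase, SD, n = 2) and CPLX2 first with ethanol (70.0 ± 22.3). SYT1 was second in both groups, with 93.1 ± 15.0 CPM per kilobase with ATRA and 60.7 ± 2.69 with ethanol. SYT4 ranked 3 with ATRA (63.5 ± 40.7) and 12 with ethanol (8.83 ± 6.82), and RIMS3 ranked 8 with ATRA (14.8 ± 8.38) and 3 with ethanol (38.5 ± 10.3). The lengths come from GENCODE 29, since the annotation used in counting is not given in the sources used here.

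Of 148 further genes of vesicles, SNAREs, active zones, retrieval, adhesion and scaffolds, 125 passed the filter, and 0 were called higher and 0 lower (edgeR quasi-likelihood over all genes; DESeq2 called 19 higher and 5 lower). At an unadjusted p under 0.05, 30 of the 125 were higher and 6 lower, and the median log2 fold change of the 125 was 0.29. Over all genes tested, 9.43% were higher and 6.49% lower at that p, shares that also stand beside the counts per list below. DESeq2 called 4.03% of its genes higher and 2.15% lower. The list of other calcium sensors and SNARE genes stood highest, with a median of 0.63 over 30 genes, 11 of them higher and 1 lower at an unadjusted p under 0.05. STX3, a syntaxin of ribbon synapses and apical membranes, was at 3.56 ± 0.52, with 8.87 and 13.4 CPM with ATRA against 1.16 and 0.743 CPM with ethanol. SYT9, another calcium sensor, was at 2.32 ± 0.36. Both were named for their small p in these same data, and the values of this list ran from -2.085 to 3.685.

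Other scaffolds had a median of 0.47 over 17 genes, 5 higher and 0 lower at an unadjusted p under 0.05. TRIO and KALRN were at 2.06 ± 0.33 and 1.15 ± 0.24. TRIO had 1574 and 969 CPM with ATRA, against 332 and 280.1 CPM with ethanol. Other adhesion genes were at a median of 0.11 over 21, with CADM4, a cell adhesion molecule, at 2.59 ± 0.37 (adjusted p 0.0510, edgeR quasi-likelihood) and IL1RAPL1, an organiser of excitatory synapses, at 3.53 ± 0.51.

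Active zone genes outside the members were near zero (median 0.05 over 16), and RIMS4, a short RIM like RIMS3, was at -1.39 ± 0.27, with 33.1 and 45.8 CPM with ATRA against 104 and 103 CPM with ethanol. RIMBP2, which links RIMs to calcium channels, was at 0.74 ± 0.23. Other vesicle proteins had a median of 0.24 over 20 genes, 5 higher and 2 lower at an unadjusted p under 0.05. The lower ones named are SLC10A4, an orphan transporter of cholinergic and monoaminergic vesicles, at -1.90 ± 0.29, and RPH3A, a RAB3 effector, at -1.71 ± 0.31. Retrieval genes had a median of 0.25 over 21, with BIN1, which curves membranes, at 1.04 ± 0.29 and AP2M1, a clathrin adaptor subunit, at 0.69 ± 0.25. Adjusted p for the 12 genes named here ran from 0.0510 to 0.254 (edgeR quasi-likelihood).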

How the data were processed

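The deposited file holds raw read counts per gene symbol, with no normalization by the authors. Reads were processed with STAR 2.5.2b, featureCounts 1.5.1 and hg19, per the submitters' processing notes; which annotation and strand option, and how shared reads were counted, is not given in the sources used here. Per the labels' protocols, RNA was depleted of ribosomal RNA and libraries were directional.

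Counts were fitted with edgeR 4.0.16 in R 4.3.3: filterByExpr (minimum count 10), TMM scaling, robust quasi-likelihood test with treatment as the sole term, and Benjamini-Hochberg adjustment over 18900 genes with a threshold of 0.05, two-sided. Each SE was taken as |log2 fold change| over √F. CPM use TMM-scaled library sizes, and within-number differences use a prior count of 2. Lengths are exon unions from GENCODE 29 (all 41 members matched). The procedure was tested on simulated data. It recovered 86% of 2-fold and 100% of 8-fold changes where library numbers did not differ. Where every gene was given a random difference between numbers it recovered 0% of both, a setting that need not match the real data. Alternatives were DESeq2 1.42.0, limma-voom (limma 3.58.1), other scalings and filters, a replicate block and leaving out each library.

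The members and lists were chosen with earlier results of these data known. Members called, with an unadjusted p under 0.05, highest per kilobase in their role, or called otherwise with the block or DESeq2 are given per library, and so are most others; of each other list, the 2 genes with the smallest p and a mean log2 CPM of at least 1 are named. NRXN3, SV2B, SV2C, NLGN1 and CADPS2 failed the filter.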

Additional observations from a re-analysis of the deposited data

How the results depend on the processing

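With RLE factors, library size alone or limma-voom 0 members were called in either direction. Members called higher and lower, all genes called higher and lower, and other pathway genes called higher and lower were 7, 3, 1126, 695, 23 and 7 when any gene with 1 or more counts was kept, 5, 1, 822, 438, 19 and 5 with DESeq2, and 1, 0, 180, 74, 6 and 1 with protein-coding genes only. Limma-voom called 43 and 7 of all genes, and RLE factors 1 other pathway gene, CADM4. Without 1 library these counts ran from 3 to 7, 0 to 4, 547 to 838, 231 to 604, 12 to 18 and 3 to 10; the library left alone in its group is assumed to vary like those of the other group. CADPS without ATRA 2 and SYN2 without ethanol 2 (-1.36) were among the lower calls. The median of the members was 0.30 to 0.38 under the other settings and 0.08 to 0.52 without 1 library. Shares are not given for the fits on any gene with 1 or more counts, on protein-coding genes only and without 1 library. The member counts of those fits do not show whether members were called more often than other genes.

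The labels give the shared numbers no meaning, and there are only 2 pairs. Deviations of same-numbered libraries correlated at 0.632 across 18900 genes, which are not independent. Protein-coding genes took 75.81% of counts in ATRA 1 and 75.76% in ethanol 1, against 86.94% in ATRA 2 and 86.93% in ethanol 2. A replicate block called 6 of the 36 members higher (SNCG, SYT1, SYT4, SYT5, SYT11 and SHANK2) and 3 lower (CPLX1, RIMS2 and RIMS3). With it 2325 and 1773 of the 18900 genes tested were called, and 34 and 7 of the 125 other pathway genes (edgeR quasi-likelihood).

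Of 528 single-gene values under alternatives, 26 had the opposite sign; the cause was not tested. UNC13A was at -0.013 with library size alone, -0.020 when any gene with 1 or more counts was kept and -0.018 with protein-coding genes, and CADPS at -0.016 with limma-voom. Lowest and highest values without 1 library were, on the log2 scale, -1.55 and 0.96 for SYN2, -0.169 and 0.810 for SYP, -0.674 and 0.357 for SV2A, -0.299 and 0.699 for RAB3A, and -0.409 and 1.56 for RAB3B. They were -0.254 and 0.241 for UNC13A, -0.0717 and 0.572 for PCLO, -1.37 and 1.20 for CADPS, -0.307 and 0.420 for SNAP91, and -0.0202 and 0.549 for DNM1. They were -0.589 and 0.968 for NRXN2, -0.168 and 1.30 for NLGN2, -0.127 and 1.59 for HOMER1, -0.511 and 1.63 for SHANK1, and -0.502 and 0.0859 for GPHN. Of members that kept their sign, SYT4 ran from 1.95 to 4.01, SNCG from 3.35 to 5.53, RIMS1 from 1.14 to 3.00 and RIMS3 from -2.12 to -0.90. With 2 libraries per group, the few reads of SNCG with ethanol and of NLGN3, RIMS1 and SYN3 limit their fold changes.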
